A study of Mus musculus with 52 samples.

Results

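VIP, GRP and PACAP are 3 neuropeptides of the suprachiasmatic nucleus (SCN), the paired hypothalamic nucleus that holds the circadian pacemaker. The genes described here are their 3 ligand genes and 4 receptor genes: Vip, Grp, Adcyap1, Vipr1, Vipr2, Grpr and Adcyap1r1. They were taken by name, as 7 of the 21999 genes in each of the bulk RNA-seq tables, and all 7 passed the filter on low counts in both experiments. In the light-pulse experiment, wild-type males were sampled in darkness at circadian time (CT) 17, with 4 libraries, or CT23, with 2. Others received light that began at CT17 and lasted 0.5 h (4 libraries), or 1 h, 3 h or 6 h, each with 2 libraries. In the Npas4 experiment, males labelled Npas4 null were set beside wild-type littermates, both in darkness and after 1 h of light at CT17, with 3 libraries in each of the 4 groups. All mice were 11 to 12 weeks old, and each bulk library pooled 6 pairs of SCN, so that a library is not a single animal. The strain, and which part of Npas4 the null allele removes, are not stated in the labels. Histone marks came from wild-type SCN, 2 pairs a sample, in the dark and after 1 h of light, with 1 peak list for each mark and lighting.

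As background, retinal ganglion cells carry light signals to the SCN with glutamate and PACAP, the product of Adcyap1. PACAP acts mainly through PAC1, the product of Adcyap1r1, a receptor coupled to Gs and Gq proteins. Neurons of the ventral SCN that receive retinal input make VIP and GRP and pass the signal on: VIP through VPAC2, the product of Vipr2, which raises cAMP and keeps SCN neurons in step, and GRP through the Gq-coupled receptor encoded by Grpr. Vipr1 encodes VPAC1, the other VIP receptor. Cyclic AMP and calcium both activate the transcription factor CREB, whose binding sequence is the cAMP response element (CRE), spelled TGACGTCA in full.

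Because CREB is the shared end point of these receptors, the promoters of the 7 genes were searched for it. RefSeq promoters on GRCm38.p6, the same build as the mm10 of the files, matched 6 of the 7 symbols (250 bases before to 50 after each start). The full element and the E-box CACGTG, the clock proteins' sequence, were in none of the 6 on either strand, against 1.55% and 6.02% of 32851 promoters of this length. The first 7 letters of the element, TGACGTC, a search chosen after the sequences were seen, were in Vip, Adcyap1 and Grpr, against 2.78% of all promoters. The 5-letter core TGACG, which lies inside TGACGTC, was also in Vipr1, against 17.8% of all promoters. TGACGTC began 79 bases before the start in Vip, 80 in Grpr, and 91 or 242 in Adcyap1, which has a pair of listed starts. The 3 stretches are printed here so that the near-complete element can be compared, 5′ to 3′ on the gene's strand, with TGACGTC in capitals.
Vip, chr10:5638968-5639192, plus strand: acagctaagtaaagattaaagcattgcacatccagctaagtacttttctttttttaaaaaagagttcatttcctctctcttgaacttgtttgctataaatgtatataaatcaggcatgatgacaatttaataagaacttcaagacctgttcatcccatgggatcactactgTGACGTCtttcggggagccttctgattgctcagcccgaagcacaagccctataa
Grpr, chrX:163549737-163549986, minus strand: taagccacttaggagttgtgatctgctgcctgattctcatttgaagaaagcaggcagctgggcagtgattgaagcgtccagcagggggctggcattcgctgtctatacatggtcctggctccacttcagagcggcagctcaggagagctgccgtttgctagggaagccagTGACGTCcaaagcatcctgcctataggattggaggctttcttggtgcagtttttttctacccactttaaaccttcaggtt
Adcyap1, chr17:93198915-93198944, plus strand: gactaggatgcTGACGTCttttactgatac
The full element with its last A was in none of the 3, as above. A match describes the letters in this window and does not show that CREB binds there.

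Depth and tissue set the frame for the values below. In the light-pulse experiment 12 libraries carry no s after the replicate number in their titles and held 12477382 to 15369985 counted reads, the 4 with it (2 at CT17 in the dark and 2 at 0.5 h) 27413860 to 30149286, and the 12 of the Npas4 experiment 26638939 to 32097975. Along the leading principal component (30% of the variance of this experiment) the s libraries lay at 10.1 to 34.7, and the others lay at -19.3 to -1.26 except 0.5 h replicate 2, at 35.2. That library also had the highest summed level of 6 meningeal fibroblast markers, 778 CPM (counts scaled to the TMM-adjusted library total). The s libraries are the only dark CT17 libraries of label batch 2, to which all 1 h, 3 h and 6 h libraries belong. In earlier results of these data the s libraries stood apart, with the rest of label batch 2 next to label batch 1. The model therefore held a term for s and none for label batch. The dark CT17 libraries without s are all of label batch 1. In this fit a difference of label batch thus cannot be told apart from that of light at 1 h and 3 h. Of the CT23 libraries, replicate 1 is of label batch 1 and replicate 2 of label batch 2. Label batch is therefore also uneven between 6 h and CT23 and between CT23 and CT17. Six6, a transcription factor gene that defines the SCN, stood at 107 to 181 CPM over all libraries. Whether a low level in bulk tissue comes from fewer cells of a type or from less RNA per cell cannot be told apart. The labels do not state that libraries within a group were made from different pools of animals. P-values then express only how far these libraries spread, which may be technical. Where all libraries of a group are said to lie above or below those of another, this is a description of few libraries. The share of all genes for which this holds was not computed.

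Levels between genes were compared per gene length, as the authors' RPKM, in which reads are scaled to gene length and library total. Vip was the most abundant of the 7 transcripts, at 114 to 273 RPKM (median 190.0) in the light-pulse experiment and 288 to 716 (median 462) in the Npas4 experiment. Adcyap1r1 followed at 60.9 to 74.1 and 55.0 to 62.9 RPKM, the narrowest spread of the 7 genes. Vipr2 stood at 22.6 to 48.9 and 37.7 to 62.5 RPKM. Adcyap1r1 was above Vipr2 in 16 of 16 light-pulse libraries and in 9 of 12 libraries of the Npas4 experiment, so in the second experiment their order did not hold in every library. Grp (13.5 to 23.7 and 15.006 to 27.8 RPKM) and Adcyap1 (15.1 to 24.5 and 13.7 to 33.1 RPKM) were neighbours that overlapped, Grp being the higher in 6 of 16 and 10 of 12 libraries. Grpr was lower, at 3.54 to 8.16 and 4.51 to 8.15 RPKM. Vipr1 was near the detection limit: it had 0 to 19 reads in a light-pulse library and 8 to 24 in a library of the Npas4 experiment, at most 0.164 RPKM. Of the 2 VIP receptor transcripts, Vipr2 was thus by far the more abundant. The count of 0 for Vipr1 in 0.5 h replicate 1 allows up to 0.227 CPM, as 3 reads of that library, for counting error only.

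**Figure D1:**
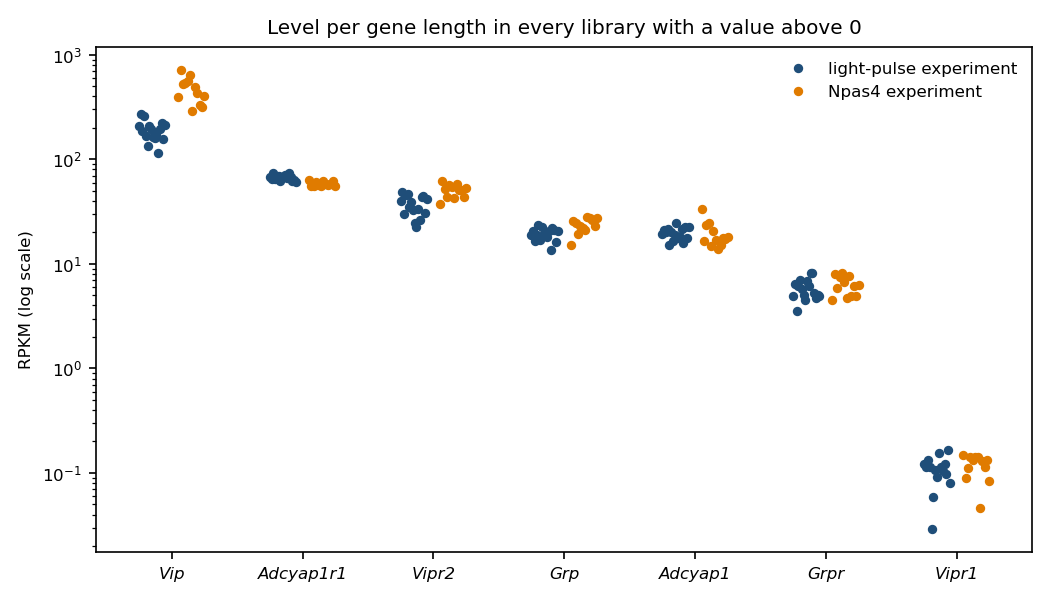
Deposited RPKM of the 7 genes on a log axis, 1 point per library above 0, for the 16 light-pulse libraries (blue) and the 12 of the Npas4 experiment (orange), with points spread sideways for visibility. Vip lies above all other genes in every library, Grp and Adcyap1 overlap, and Vipr1 stays at or below 0.164 RPKM.

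Relatives of these peptides and receptors stayed below the levels of Vip, Adcyap1r1, Vipr2, Grp and Adcyap1. Nmb, Ghrh and Brs3 reached the range of Grpr, 3.54 to 8.16 RPKM over both experiments. Among ligands of the same families, Nmb, a bombesin-like relative of GRP, reached 2.63 to 7.15 RPKM and Ghrh, the growth hormone releasing hormone, 1.26 to 10.1 RPKM over both experiments. Sct (secretin) and Gcg (glucagon) had at most 6 reads and 1 read in a library. Gip had 0 reads in all 28 libraries, which allows at most 0.240 CPM in the shallowest of them. Among receptors, Brs3, an orphan receptor of the bombesin family, stood at 0.330 to 5.86 RPKM, Nmbr (the receptor for NMB) at 0.685 to 1.86, Sctr (secretin receptor) at 1.07 to 2.40, Glp1r (glucagon-like peptide receptor) at 1.06 to 2.83 and Gipr at 0.155 to 0.374 RPKM. Ghrhr had at most 3 reads. The log2 change of Nmbr at 3 h, -0.65 ± 0.25, missed the threshold (adjusted p = 0.199 by edgeR's quasi-likelihood test with Benjamini-Hochberg adjustment over all genes).

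The first comparisons ask whether light in the subjective night changes the transcripts of these peptides and receptors. By edgeR at an adjusted p of 0.05, 0 of the 7 genes was called at any length of light. All-gene shares called were 0.468% at 0.5 h, 1.27% at 1 h and 3.24% at 3 h, each against dark at CT17, and 1.41% at 6 h against dark at CT23. At an unadjusted p under 0.05 there were 2, 0, 3 and 1 of the 7 genes, where 4.66%, 8.46%, 15.5% and 9.45% of all genes passed. DESeq2 called 1 of the 7 genes, Vipr2, at 3 h and none at the other lengths. The share of all genes that DESeq2 called is not given beside this count. No dark group matches the hour of the 3 h libraries, so for every gene light and circadian time cannot be told apart in that comparison. Label batch is a further difference between the 1 h and 3 h libraries and the CT17 libraries without s. The comparisons share control libraries, so their counts are not independent. The same file gave large responses of other genes: Npas4 rose by 2.14 ± 0.12 in log2 at 0.5 h, from 9.27 to 11.5 CPM to 42.9 to 51.1 CPM.

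**Figure D2:**
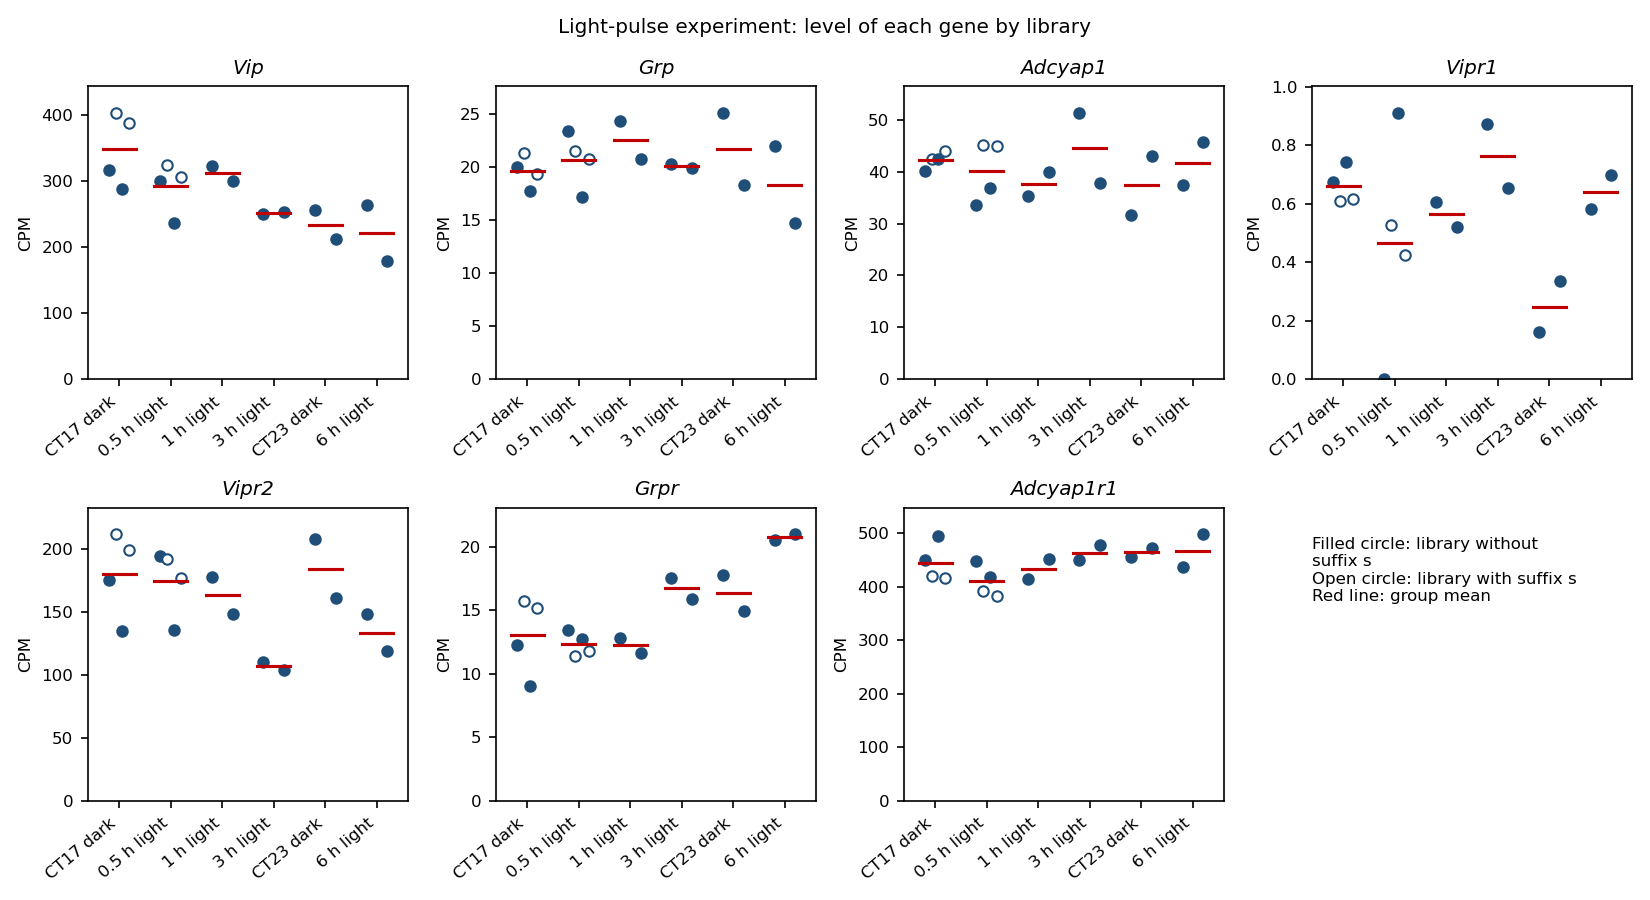
CPM of each of the 7 genes in the 16 light-pulse libraries, by condition on the horizontal axis, 1 circle per library (open for the s libraries) with the group mean as a red line. The 2 libraries of 3 h lie below all 4 CT17 libraries in Vip and Vipr2.

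Vipr2, the VIP receptor that SCN neurons use to stay synchronous, had the largest difference between light and dark among the 6 genes other than Vipr1. In the dark at CT17 it stood at 176 and 134 CPM in replicates 1 and 2 and at 212 and 199 in the s libraries. After 3 h of light it was at 110 and 104 CPM. Both 3 h libraries were below all 4 CT17 libraries, with a log2 fold change of -0.60 ± 0.17 (95% interval -0.95 to -0.24), and the test just missed the threshold (adjusted p = 0.0659 by edgeR). At 0.5 h it was at 194 and 135 CPM and at 192 and 177 in the s libraries, and at 1 h at 178 and 149, so both earlier times overlapped the dark. After 6 h it was at 148 and 119 CPM against 208 and 161 in the dark at CT23 (-0.46 ± 0.17, adjusted p = 0.338). These libraries did not overlap, nor did those of Vipr1 and Grpr in the same comparison. With 2 libraries in each group such a separation is a weak description, and its share over all genes was not computed. Against 1 h, the 3 h value was -0.61 ± 0.17 (adjusted p = 0.128), a test added with earlier results known, where 1.53% of all genes were called. The size of the 3 h difference rested on the handling of the libraries. It was -0.82 (adjusted p = 0.0116) with the batch of the labels in place of s. Within label batch 2, whose dark CT17 libraries all carry s, it was -0.94. With 3 kinds of library (label batch 1, label batch 2 without s, and s) it was -0.22 (adjusted p = 0.840). In that fit the first 2 kinds meet only at CT23, with 1 library of each, so the value rests on that pair. With the term for s, the 3 h difference was called without CT17 replicate 2 (-0.74, adjusted p = 0.0301) and without 0.5 h replicate 2 (-0.63, adjusted p = 0.0279). Without the 4 s libraries it was -0.53 (adjusted p = 0.248). Over these libraries the summed level of 12 SCN neuron markers was 3751 to 3955 CPM at CT17 and 4493 to 5038 at 3 h. Scg2, a granin gene described below, made up 65.6% or more of that sum in these libraries, and without it the sums overlapped, at 1039 to 1328 and 1287 to 1352 CPM. In the list Prok2, Rorb and Rgs16 rose at 3 h and Lhx1 fell by 0.65 on the log2 scale (73.9 to 109 CPM at CT17, 51.8 to 53.5 at 3 h), while Six3 and Six6 did not pass (-0.11 ± 0.12 and -0.06 ± 0.12). The sum of 8 oligodendrocyte markers was 7321 to 8573 and 5728 to 6309 CPM. The part of these cells in the Vipr2 value was not tested.

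Vip, the peptide gene of the light-receiving neurons, was also lower late in the pulse, and it was as low in the dark at the later hour. It stood at 317 and 288 CPM at CT17 in the dark, and at 404 and 388 in the s libraries. At 3 h it was at 250 and 253 CPM, below all 4 of them (-0.31 ± 0.14, adjusted p = 0.302). At CT23 in the dark it was at 256 and 213 CPM, also below them without light (-0.41 ± 0.14, adjusted p = 0.350), in a comparison where 0.269% of all genes and 0 of the 7 were called by edgeR and DESeq2, with 2 of the 7, Vip and Grpr, at an unadjusted p under 0.05. After 6 h it was at 264 and 179 CPM, which overlapped CT23 (-0.08 ± 0.15). At 1 h it was at 324 and 301 CPM, within the CT17 range. At 0.5 h it was at 301 and 237 CPM, and at 325 and 307 in the s libraries, with a log2 change of -0.25 ± 0.10 (adjusted p = 0.990). That was -0.20 without 0.5 h replicate 2, -0.17 within label batch 1, and -0.31 among the s libraries alone, where it passed (adjusted p = 0.0496). The 3 h value was -0.56 (adjusted p = 0.0354) with the batch of the labels and -0.65 (adjusted p = 0.00529) within label batch 2. With 3 kinds of library it was -0.04, a value that again rests on the pair of CT23 libraries. The CT23 value was -0.90 (adjusted p = 0.00858) within label batch 2, a fit that assumes its lone CT23 library to vary like the other groups and in which both CT17 libraries carry s.

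Grpr, the GRP receptor gene, had its highest levels after 6 h of light. It was at 12.3 and 9.05 CPM at CT17, and at 15.7 and 15.2 in the s libraries, against 17.6 and 15.9 CPM after 3 h of light. The 3 h libraries were above all 4 dark ones, though the lower of them was close to the highest dark library, and the log2 change of 0.44 ± 0.17 did not pass (adjusted p = 0.230). It was 0.22 without CT17 replicate 2, 0.11 within label batch 2 and 0.65 without the s libraries. In the dark at CT23 it was at 17.8 and 14.96 CPM (0.40 ± 0.17, adjusted p = 0.454), and after 6 h at 20.5 and 21.0 CPM, the highest of the experiment (0.35 ± 0.18 against CT23, adjusted p = 0.601). At 0.5 h and 1 h its 6 libraries, at 11.4 to 13.5 CPM, lay within the range of the 4 dark ones. Within label batch 2 the 1 h libraries (12.9 and 11.6 CPM) were below both dark ones, which carry s. The difference of -0.34 was called there (adjusted p = 0.0358 by edgeR), as was that of Vipr2 at 1 h (-0.34, adjusted p = 0.0433).

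The remaining 4 genes showed no difference past the threshold. Grp, the ligand of that receptor, was at 14.7 to 25.2 CPM over all 16 libraries, with log2 changes from -0.24 (6 h) to 0.25 (1 h) and standard errors of 0.12 to 0.18. Adcyap1, which encodes PACAP, was at 40.2 to 43.9 CPM in the 4 dark CT17 libraries, at 35.2 and 40.02 after 1 h and at 51.3 and 37.8 after 3 h, so that the 1 h libraries lay below all 4 dark ones and the 3 h libraries on both sides of them. Its 95% interval at 1 h, -0.37 to 0.25, leaves room for a change of that size in either direction. Its receptor gene Adcyap1r1 was at 383 to 498 CPM and had the tightest intervals, with a log2 change of -0.12 ± 0.05 at 0.5 h (adjusted p = 1.00; unadjusted p = 0.045) and -0.02 ± 0.07 at 3 h. Vipr1 had standard errors of 0.44 to 0.80 in the 4 light comparisons, and a difference was not detectable at its depth. Between 1 h and 0.5 h, where 0.496% of all genes were called, 0 of the 7 genes passed by edgeR or DESeq2 and 0 had an unadjusted p under 0.05.

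**Figure D3:**
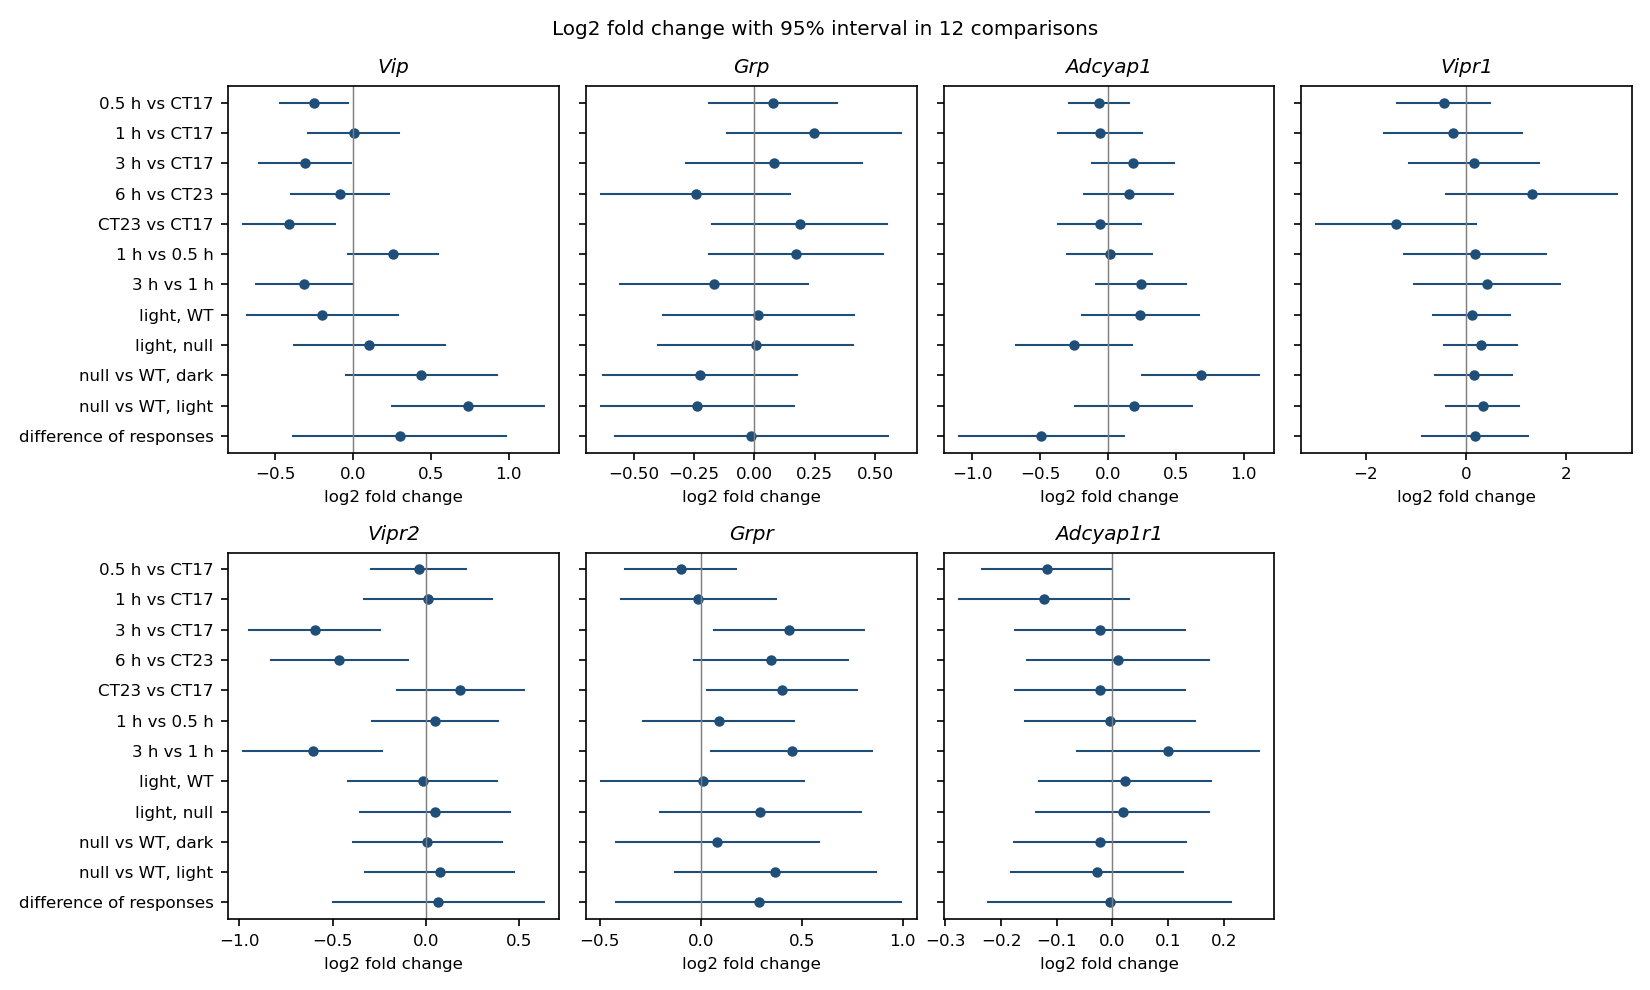
Log2 fold change (point) with its 95% interval (line) for each of the 7 genes in the 12 comparisons of the edgeR fits, with a horizontal axis of its own for each gene. None was called, and the interval lies off 0 in 12 of the 84 cases.

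The Npas4 experiment asks whether the peptide genes or their response to light differ in mice labelled null for NPAS4, a transcription factor that neuronal activity induces. Npas4 itself stood at 8.20 to 8.64 CPM in wild-type dark and 5.27 to 10.4 in the dark libraries labelled null, and at 10.7 to 14.0 against 4.55 to 7.63 CPM in light (-1.14 ± 0.24, adjusted p = 0.0663). Reads of the gene thus remained in the libraries labelled null, and counts over the whole gene cannot show which part is missing. By edgeR 0 of the 7 genes was called for light in wild type (2.57% of all genes called), light in the null (1.56%), null against wild type in the dark (0.753%) or in light (0.467%), or for the difference between both light responses (0.0133%). At an unadjusted p under 0.05 there were 0, 0, 1, 1 and 0 of the 7, against 9.55%, 7.93%, 9.19%, 5.91% and 2.28% of all genes. DESeq2 called 1, Adcyap1 in the dark between genotypes, and none in the others. With the replicate number as a block, edgeR called Adcyap1 in the dark and Vip in light between the genotypes. The counts of 0 between the genotypes thus hold for the fit without that block. The shares of all genes called by DESeq2 and with the block are not given beside these counts.

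**Figure D4:**
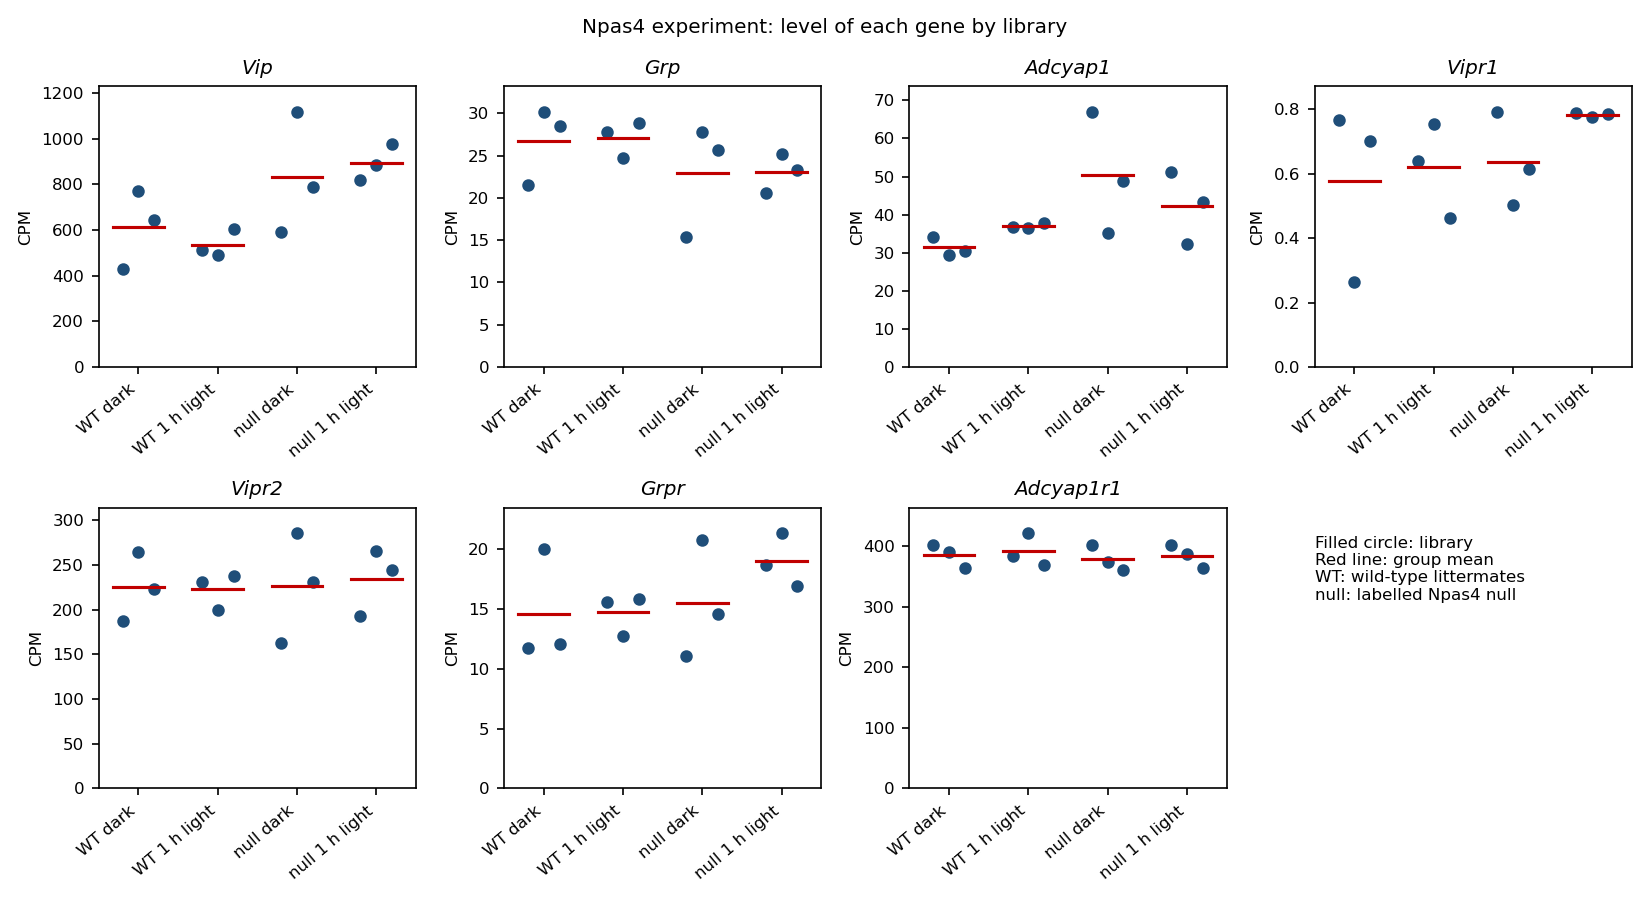
CPM of each of the 7 genes in the 12 libraries of the Npas4 experiment, by genotype and lighting on the horizontal axis, 1 point per library with the group mean as a red line. The 3 null light libraries lie above the 3 wild-type light libraries in Vip, and the 3 null dark above the 3 wild-type dark in Adcyap1.

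Vip was higher in every null light library than in every wild-type light library. It was at 512, 491 and 606 CPM in wild type and at 818, 884 and 979 in the null after light, in order of replicate. The log2 difference was 0.74 ± 0.22 (95% interval 0.25 to 1.22), with an adjusted p of 0.359 by edgeR. With the replicate number as a block it was 0.73 and was called (adjusted p = 0.0351 by edgeR). The same-numbered light libraries of both genotypes correlated at r of -0.0134, 0.112 and 0.171 over genes. Over all groups same-numbered pairs reached 0.525, and 12 of 12 libraries correlated best with a library of their own number. In the dark it was at 428, 771 and 642 CPM in wild type and 589, 1119 and 787 in the null, which overlapped, though each null library was above the wild-type one of its number (0.44 ± 0.22, adjusted p = 0.603, and 0.155 with the block). The dark difference ranged from 0.16 without null dark replicate 2 to 0.64 without null dark replicate 1. Light itself gave log2 changes of -0.20 ± 0.22 in wild type and 0.10 ± 0.22 in the null, and their difference was 0.30 ± 0.32 (adjusted p = 1.00). The summed level of 12 SCN neuron markers was 4719, 4109 and 4065 CPM in wild-type light and 4209, 5695 and 4697 in null light. In the dark it was 3262, 4706 and 3557 in wild type and 3415, 5656 and 4251 in the null. Scg2 made up 51.3% to 66.0% of these sums, and without it they were 1396 to 1953 CPM in wild-type light and 1843 to 2293 in null light, which overlapped. Six3, Six6 and Lhx1 overlapped between the genotypes in light as well. The part of the tissue's makeup in the Vip difference was not tested. In the list, by edgeR in the dark, 3 genes were higher and 1 lower in the null; the largest differences were those of Prok2, the output peptide prokineticin 2 (3.34), Cck, cholecystokinin (-2.80), and Rgs16 (1.84 on the log2 scale). In light 3 were again higher and 1 lower, with the neuropeptide gene Nms at 1.49.

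Adcyap1, the PACAP gene, was higher in every null dark library than in every wild-type dark library. It was at 34.2, 29.4 and 30.6 CPM in wild type and at 67.1, 35.1 and 48.7 in the null. The log2 difference was 0.68 ± 0.20 (adjusted p = 0.225 by edgeR), and without null dark replicate 1 the value was 0.42. With the replicate number as a block it was 0.65 and was called (adjusted p = 0.0163), and the same-numbered dark libraries of both genotypes deviated from their group means together (r of 0.345, 0.525 and 0.205 over genes). DESeq2 called it (adjusted p = 0.0403), and so did edgeR without null dark replicate 2 (0.88, adjusted p = 0.0394). After light it was at 36.8, 36.5 and 37.8 CPM in wild type and at 51.1, 32.2 and 43.3 in the null, which overlapped (0.19 ± 0.20). The replicate with the highest Adcyap1, null dark 1, had the lowest Vip (589), Vipr2 (163) and Grp (15.4 CPM) of its group. The 6 markers of the ventromedial hypothalamus, a neighbour rich in Adcyap1, summed to 297 to 345 CPM in null dark and 255 to 353 in wild-type dark. Gda made up most of these sums, at 239 to 288 and 213 to 305 CPM. Nr5a1 (7.89 to 12.1 and 7.47 to 10.3 CPM) and Fezf1 (3.78 to 10.1 and 3.61 to 8.71 CPM) overlapped between the genotypes, as did the other markers. The 6 retinal ganglion cell markers summed to 5.52 to 8.66 CPM over the experiment, of which Opn4 and Pou4f2 had at most 1 and 2 reads a library. Null dark replicate 1 had the highest of these sums, which were almost wholly Rbpms (5.30 to 8.15 CPM in null dark). Pou4f1 and Isl2 had at most 3 reads a library. The 6 meningeal fibroblast markers summed to 57.0 to 216 CPM in null dark and 64.4 to 79.1 in wild-type dark. The part of these cells in the result was not tested.

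The receptor genes and Grp showed no genotype difference past the threshold. Vipr2 was at 163 to 286 CPM in all, with log2 differences of 0.01 ± 0.18 in the dark and 0.07 ± 0.18 in light. Grpr was at 11.0 to 21.3 CPM (0.08 ± 0.23 and 0.37 ± 0.23). Adcyap1r1 was at 361 to 421 CPM, with 95% intervals of -0.18 to 0.13 in both lightings. Grp was at 15.4 to 30.2 CPM (-0.22 ± 0.18 and -0.24 ± 0.18). Vipr1 was at 0.262 to 0.794 CPM. In wild type, 1 h of light gave log2 changes of -0.02 ± 0.18 for Vipr2, 0.02 ± 0.18 for Grp and 0.24 ± 0.20 for Adcyap1, whose 3 wild-type light libraries were above the 3 dark ones. In the null that of Adcyap1 was -0.25 ± 0.20, with overlap, and the difference between both responses was -0.49 ± 0.28 (adjusted p = 1.00 by edgeR).

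The signalling genes downstream of the receptors were sorted by role and described by their counts. The Gs and cAMP list held 26 genes, among them G protein, adenylyl cyclase, protein kinase A and CREB family genes. At 1 h, 3 h and 6 h the 1 gene of this list called was Crem, which encodes CREM and the inducible repressor ICER. It was at 18.7 to 24.4 CPM in the dark at CT17, at 34.3 and 38.4 after 1 h and at 45.9 and 50.8 after 3 h. A count of 1 in 26 is to be read beside the 1.27%, 3.24% and 1.41% of all genes called, and says nothing particular about the list. The log2 rise was 0.76 ± 0.13 at 1 h (adjusted p = 0.00320), 1.17 ± 0.12 at 3 h and 0.68 ± 0.14 at 6 h (adjusted p = 0.0236), and 1.08 ± 0.13 in wild type and 0.91 ± 0.13 in the null of the Npas4 experiment. At 1 h it did not pass without 1 h replicate 1 (adjusted p = 0.0957), and at 6 h it passed in 13 of 16 fits with 1 library left out, failing without either CT23 library and without 6 h replicate 1 (0.43). Within label batch 2 alone, where both dark CT17 libraries carry s, the list had 8 called genes at 1 h and 7 at 3 h. These counts are not set beside the share of all genes called in that fit, and say nothing particular about the list. The list's median at 3 h was 0.06, against -0.02 over all genes. The Gq and calcium list of 22 genes had 0 called in all 12 comparisons by edgeR, 0 or 1 at an unadjusted p under 0.05, and by DESeq2 only Dgka, between the genotypes. With 0.0133% to 3.24% of all genes called, 0 of 22 is near the background.

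The list of receptor brakes held 12 genes, of which 10 were tested. They encode kinases, arrestins and RGS proteins that end G protein signals, and the receptor accessory proteins Ramp1, Ramp2 and Ramp3. Rgs16, which is rhythmic in the SCN, stood at 60.8 to 67.7 CPM at CT17 in the dark, at 93.9 and 94.7 after 1 h and at 106 and 113 after 3 h, rises of 0.53 ± 0.11 (adjusted p = 0.0198) and 0.74 ± 0.11 (adjusted p = 0.000744). It was also higher in the dark at CT23 (132 and 171 CPM, 1.21 ± 0.10). In the dark libraries labelled null it was at 264, 423 and 367 CPM against 92.1, 104 and 99.0 in wild type (1.84 ± 0.16, adjusted p = 9.45e-05), and after light the difference was 1.21 ± 0.15. Light for 1 h in that experiment gave 0.35 ± 0.15 in wild type (adjusted p = 0.471) and -0.27 ± 0.15 in the null (adjusted p = 0.778), and 6 h against CT23 gave 0.42 ± 0.11 (adjusted p = 0.0929). Rgs2, an inhibitor of Gq, rose by 0.35 ± 0.08 at 1 h and fell by 0.46 from 1 h to 3 h. The 1 h rise of Rgs2 was called in 9 of 16 fits with 1 library left out. Its value was -0.013 with the batch of the labels and -0.035 within label batch 2.

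Among 10 genes of peptide processing, Pcsk1, the convertase PC1/3 that cleaves propeptides, rose by 0.54 ± 0.12 at 1 h, 1.02 ± 0.12 at 3 h and 0.90 ± 0.13 at 6 h. It was at 30.1 to 39.2 CPM at CT17 in the dark and at 66.2 and 78.9 after 3 h. In the Npas4 experiment it rose by 1.04 ± 0.17 in wild type and 0.81 ± 0.17 in the null, the second in 6 of 12 fits with 1 library left out. Its 1 h rise was called in 7 of 16 such fits. Scg2, a secretogranin of dense-core vesicles, rose by 0.34 ± 0.08 at 1 h, in 5 of 16. Chga, chromogranin A, rose by 0.38 ± 0.07 at 3 h and 0.37 ± 0.08 at 6 h, and passed at neither time with the batch of the labels (0.22 and 0.30) or without the s libraries (0.37 and 0.38). None of the 10 genes fell in these 4 light comparisons.

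**Figure D5:**
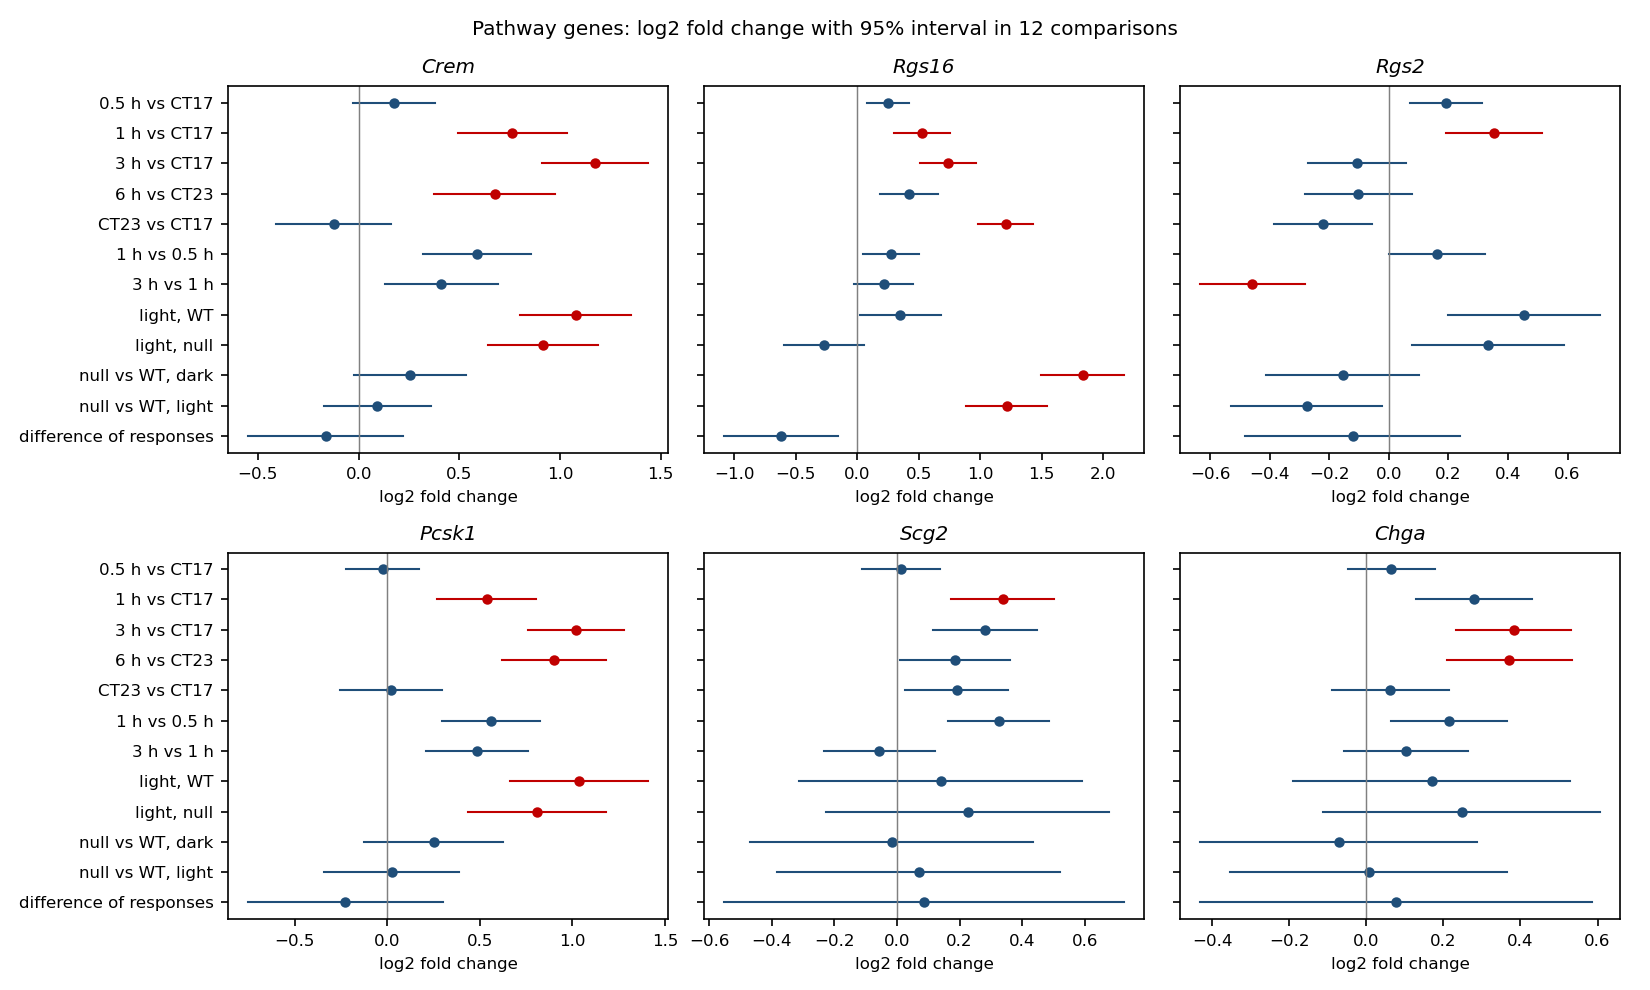
Log2 fold change (point) with its 95% interval (line) in the 12 comparisons for the 6 called genes of the Gs, brake and peptide-processing lists, red where called by edgeR at an adjusted p of 0.05. Crem and Pcsk1 were called at 1 h, 3 h and 6 h and in both genotypes, and Rgs16 also between genotypes.

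The last list held 12 genes read out as CREB-responsive. It was chosen with earlier results of these data known, so its counts and medians are descriptions. They test neither CREB nor the receptors of the 7 genes. By edgeR 8 of them were called higher at 0.5 h, 10 at 1 h, 11 at 3 h and 3 at 6 h, and none lower. Of all genes 0.454%, 1.11%, 2.2% and 0.998% were called higher. The list's median log2 change was 2.00 at 1 h against -0.01 over all genes. Egr1, a zinc-finger factor, rose by 5.03 ± 0.13 and Fos, an AP-1 subunit, by 4.97 ± 0.12 at 0.5 h. At 6 h the largest rises were those of Vgf (1.91 ± 0.15), a granin-like secreted protein, and the clock gene Per2 (1.40 ± 0.10). In the Npas4 experiment 11 of 12 were called higher after light in each genotype, against 2.23% of all genes in wild type and 1.45% in the null. In the dark, 5 were called higher in the libraries labelled null, against 0.433% of all genes, Fos by 1.44 ± 0.19 (adjusted p = 0.00308).

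Chromatin at these genes was read from the authors' peak lists, whose fold enrichments are the authors' own and come from 1 library each, with no replicate. H3K4me3, a mark of active promoters, had a peak within 1 kb of the start (for Grp, with no promoter entry, of either end of the gene) of 7 of the 7 genes in the dark and 6 of 7 after light, against 49.7% and 48.5% of 27025 genes. Adcyap1r1 (chr6:55451323-55456067) had a 41.1-fold peak of 4745 bases in the dark and a 30.2-fold one in light. Vipr2 (chr12:116076801-116079910) had 30.4-fold and 24.1-fold peaks, wide ones that cover the start. Vipr1, whose transcript was near 0, still had a peak over its start at 17.7-fold in the dark and 10.2-fold in light. Grp had 9.42-fold and 9.80-fold peaks near an end of the gene. Grpr had 6.35-fold and 5.31-fold peaks 535 and 711 bases from the start. Vip, the most abundant transcript, had a single 6.00-fold peak of 478 bases (chr10:5639452-5639929), 234 bases inside the gene, in the dark and none in the light list. With the peaks of -log10 q of 10 or more alone, 5 of 7 and 4 of 7 genes had one, against 47.6% and 46.5% of all genes. The H3K4me3 light list was the shorter, with 27551 peaks against 30410 in the dark.

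The acetylation mark H3K27ac, which active promoters and enhancers carry, was found near the starts of Vipr2 and Adcyap1r1 alone, 2 of 7 in each lighting, against 36.3% and 35.8% of all genes. In the gene and 5 kb on either side, Vipr2 had 13 such peaks in the dark and 9 in light, and Adcyap1r1 had 4 and 4. The highest fold was 8.14 in the dark and 6.89 in light at Vipr2, and 8.13 and 7.15 at Adcyap1r1. The other 5 genes had 0 in this region in both lists. Vipr2 (71218 bases) and Adcyap1r1 (49955 bases) are the longest of the 7 genes, and the others span 8297 to 35833 bases. A longer region can hold more peaks, and the share of all genes was not computed for it. The H3K27ac lists held 38447 peaks in the dark and 40403 in light.

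Which transcripts varied with these genes was described over the 12 libraries of the Npas4 experiment and the 12 light-pulse libraries without s, as Pearson's r of log2 CPM centred within each experiment, among 14476 genes. The points share library depth and the makeup of the dissected tissue, and the correlations are descriptions with no test. Vip varied most like Ppp1r17 (r = 0.842), followed by Ppp1r1a (0.792) and Cdh13 (0.787). The nearest to Vipr2 were Zfp618 (0.917) and Cobll1 (0.891), those to Grp Nsmf (0.897) and Synpr (0.877), those to Grpr Pde2a (0.878) and Dgkh (0.865), those to Adcyap1 Rnf128 (0.865) and Habp4 (0.838), and those to Adcyap1r1 Phactr1 (0.914) and Ptprt (0.854). The SCN transcription factor gene Six6 stood among the 5 nearest to Grp (0.866), and the clock gene Arntl among those of Grpr (0.861). Between the 7 genes, Vipr2 and Grp varied together (0.693; 0.631 and 0.806 within the experiments), whereas Adcyap1 ran against Grp (-0.745; -0.647 and -0.807) and Vipr2 (-0.597). Vip and Grpr had opposite signs in the 2 experiments, -0.615 in the light-pulse and 0.758 in the Npas4 libraries.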

How the data were processed

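Bulk RNA-seq of SCN tissue was deposited by the authors as whole-number read counts per gene and as RPKM values of the same 28 libraries, 16 in the light-pulse and 12 in the Npas4 experiment. The deposited RPKM equals the count divided by a whole gene length and the library total, to within 8.7e-11 of a whole number of bases. Per the labels' protocols mRNA was taken with a Dynabead kit and made into TruSeq libraries. Per the submitters' processing notes STAR 2.7.1a, HTSeq 0.9.1, BWA 0.7.16a and MACS2 2.1.1 are listed, with the build mm10. The tool behind each file and the use of strand in counting are not stated there, so overlapping genes are uncertain. The authors deposited peak lists with a linear fold enrichment and a -log10 q-value for each peak. The 18 single-nucleus samples and the ChIP inputs were not used here.

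Tests on the counts used the quasi-likelihood F-test of edgeR 4.0.16 under R 4.3.3 (TMM scaling, filterByExpr), which left 14524 and 15001 genes. P-values were adjusted over all of them by the Benjamini-Hochberg method, and a gene was called at 0.05. The light-pulse model held the 6 groups and a term for the suffix s, the Npas4 model the 4 groups. CPM are counts scaled to the TMM-adjusted total. Log2 fold changes are given ± SE. Alternatives were DESeq2 1.42.0, other scaling, no filter, other library terms, a replicate block and each library left out. The fits were tested on simulated data. The 7 genes and the lists were chosen with earlier results of these data known. Named were the 7 genes, their family members, up to 3 called genes per list with the largest change, Npas4, and the genes of nearest likeness. Libraries of the same number differed by a chi-square of 10.4 or more per degree of freedom and were kept apart. Intervals cover the spread between libraries only.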

Additional observations from a re-analysis of the deposited data

Results flagged for a closer look

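The light responses of Fos and Nr4a1 differed between the genotypes, by the interaction term of the edgeR fit over all genes. The response in the null minus that in wild type was -1.88 ± 0.25 on the log2 scale for Fos (adjusted p = 0.0453) and -1.70 ± 0.21 for Nr4a1 (adjusted p = 0.0446), beside dark levels that were higher in the libraries labelled null by 1.44 and 1.27. These were the 2 called of 15001 genes, both are of the CREB-responsive list, and neither is a peptide or receptor gene. With 1 library left out, each passed in 3 of 12 fits, with adjusted p-values of 0.00862 to 0.268 for Fos and 0.0106 to 0.227 for Nr4a1, and values of -2.04 to -1.68 and -1.82 to -1.54. Both passed with DESeq2 (adjusted p = 5.22e-10 and 1.42e-10), without a filter (0.0221 and 0.0219) and with the replicate block (0.0263 for both). With DESeq2's size factors in edgeR Nr4a1 passed (adjusted p = 0.0495) and Fos did not (adjusted p = 0.0503).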

How the results depend on the processing

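Of 250 counts of called members under the alternatives, 232 stayed at 0 and 18 did not. For 3 h against CT17 the count was 2 with the batch of the labels and 2 within label batch 2 (Vip and Vipr2), 1 with DESeq2, 1 without a filter and 1 with the replicate block (Vipr2 in each). The fits that left out 1 library gave 0 to 1 there, and 0 to 1 for null against wild type in the dark. For 3 h against 1 h the count was 1 with DESeq2, with the replicate block and within label batch 2 (Vipr2), and for 6 h against CT23 it was 1 with the replicate block (Vipr2). Within label batch 2 it was 2 at 1 h (Vipr2 and Grpr) and 1 for CT23 against CT17 (Vip, with a lone CT23 library), and among the s libraries alone it was 1 at 0.5 h (Vip). For null against wild type it was 1 with DESeq2 in the dark (Adcyap1). These counts are not set beside the share of all genes called in the same fits, which can differ from that of the main fit. They say nothing particular about the 7 genes. The cause was not tested.

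Values that changed sign as called results were those of Vipr2 at 1 h within label batch 2 (-0.34), and of Rgs2 at 1 h with the batch of the labels (-0.013) and within label batch 2 (-0.035). For Rgs2 at 1 h against 0.5 h it was -0.24 within label batch 2. Within label batch 2 the dark CT17 and 0.5 h libraries all carry the suffix s. Of 1750 member values under the alternatives, 145 that were called in neither fit had the other sign.

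The replicate numbers of the Npas4 libraries are not said to mark a shared litter or day. Same-numbered libraries correlated at -0.0134 to 0.525 over 18 pairs, and the 3 pairs of dark libraries between genotypes were at 0.205 to 0.525. All 12 of 12 libraries correlated best with a library of their own number, so libraries of a number shared variation. The main fit held groups only, as the labels give no batch for these libraries. It left this shared variation in the spread, and its calls between the genotypes depend on that choice. With the replicate block 1 member was called for null against wild type in the dark (Adcyap1, adjusted p = 0.0163) and 1 in light (Vip, adjusted p = 0.0351). In the light-pulse libraries the block gave an adjusted p of 0.00184 for Vipr2 at 3 h. The low counts of Vipr1 limit what can be seen for that gene.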
